A study of Mus musculus with 8 samples.

Results

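The desmosome genes described here are 8 of the 47069 genes in the full count tables, matched by mouse symbol to their Ensembl identifiers: Dsp, Dsc2, Dsg2, Jup, Pkp1, Pkp2, Pkp3 and Pkp4. They were picked by the known make-up of the desmosome, with their counts in the 4 groups already known. The fold changes and adjusted p-values below therefore place each gene among all genes tested and are no independent evidence about the set. The libraries hold poly-A RNA of C57BL/6 mouse embryonic stem (ES) cells in 4 groups of 2 libraries: Cas9-edited cells labelled Pcgf3KO, cells labelled Pcgf5KO, cells edited in both genes (labelled Pcgf3/5 DKO, here DKO) and wild type cells (WT). Pcgf3 and Pcgf5 encode alternative core subunits of variant Polycomb repressive complex 1, which ubiquitinates a core histone at silent genes. All 4 groups were kept on a layer of embryonic fibroblasts stopped with mitomycin-C, in medium with serum and LIF, and the fibroblasts can add RNA to any library. The labels give no number of clones per genotype and do not say whether the 2 libraries of a group came from separate cultures, so p-values measure the spread between these libraries, which may be technical.

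Desmosomes are spot-like junctions that rivet epithelial cells together. Desmosomal cadherins of 2 kinds, the desmogleins and the desmocollins, cross the membrane and bind those of the next cell. Inside the cell their tails hold armadillo proteins, plakoglobin (Jup) and the plakophilins (Pkp), and these bind desmoplakin (Dsp), which ties the junction to keratin filaments. In the mouse blastocyst desmosomes form in the trophectoderm, the outer epithelium, while ES cells derive from the inner cell mass.

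The full tables summed to between 12652616 and 19923964 counts per library. For WT replicate 1 the table at hand ends early, after 8093 genes (17.2% of the list), and of the 8 genes it has Dsc2 alone, so WT was 1 library for the others. Levels are CPM (counts scaled to the library's total) from a fit of the 7 full libraries, and for Dsc2 also from a fit of the genes listed in all 8. The 2 libraries of a group correlated at r = 0.996 (Pcgf3KO), 0.996 (Pcgf5KO) and 0.989 (DKO) over 15669 genes and at 0.991 (WT) over 2702. Pcgf3 ranged from 60.5 to 66.1 CPM in Pcgf3KO and from 67.2 to 86.6 in DKO, against 110 in WT, and Pcgf5 from 9.06 to 12.3 in Pcgf5KO and from 13.5 to 13.9 in DKO, against 20.7 in WT, so each transcript was still present in the cells edited for it. The ES cell markers Pou5f1 (199 to 261 CPM in edited cells, 196 in WT), Sox2 (376 to 423 and 367) and Nanog (96.8 to 142 and 99.6) were present in each of the 7 libraries.

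The lead member is Dsp, on chromosome 13 from 38151328 to 38198577 on the + strand (mm10). The promoter windows of Dsp, Jup and Pkp4 are shown because these 3 were the only members with a window that could be printed. They were not picked by their levels. Dsp was lower in all 3 edited groups, Jup in DKO, and Pkp4 passed no test. Whether the windows bear on these differences was not tested. Each window runs from 250 bases before to 50 bases after the RefSeq start of transcription (RefSeq sequence, GRCm38.p6), at chr13:38151044-38151343 (+) for Dsp, chr11:100397741-100398040 (-) for Jup and chr2:59160600-59160899 (+) for Pkp4. Capitals mark matches, on either strand, to GGGCGG (the GC box), CAGGTG (an E-box that Snail and Zeb factors can bind), TGANTCA (the AP-1 site) or CCAAT; neighbouring and overlapping matches run together.
Dsp: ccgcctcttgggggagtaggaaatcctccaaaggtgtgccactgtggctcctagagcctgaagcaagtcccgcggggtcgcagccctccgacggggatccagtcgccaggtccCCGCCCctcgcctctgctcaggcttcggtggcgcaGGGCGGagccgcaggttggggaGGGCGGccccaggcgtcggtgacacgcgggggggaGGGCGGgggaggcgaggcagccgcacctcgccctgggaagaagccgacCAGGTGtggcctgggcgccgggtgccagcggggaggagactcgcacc
Jup: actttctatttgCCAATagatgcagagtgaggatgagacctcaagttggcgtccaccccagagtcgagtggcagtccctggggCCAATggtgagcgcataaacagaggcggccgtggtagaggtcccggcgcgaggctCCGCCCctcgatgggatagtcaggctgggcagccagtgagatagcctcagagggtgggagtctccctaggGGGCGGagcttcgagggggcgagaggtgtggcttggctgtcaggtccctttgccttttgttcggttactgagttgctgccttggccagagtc
Pkp4: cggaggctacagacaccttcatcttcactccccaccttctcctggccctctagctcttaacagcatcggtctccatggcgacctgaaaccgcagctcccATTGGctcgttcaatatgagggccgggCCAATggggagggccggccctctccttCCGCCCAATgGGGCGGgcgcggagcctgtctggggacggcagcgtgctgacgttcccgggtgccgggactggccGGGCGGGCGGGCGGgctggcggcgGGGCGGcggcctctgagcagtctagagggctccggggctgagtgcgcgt
The Dsp window held 4 GC boxes, 1 CAGGTG and 27 CpG dinucleotides at 73% GC. The Jup window held 2 GC boxes, 2 CCAAT boxes and 14 CpG at 60.7% GC. The Pkp4 window held 6 GC boxes, 3 CCAAT boxes and 27 CpG at 69.3% GC. Of 32851 mouse promoter windows of this length, 35.7% held a GC box, 20.2% CAGGTG, 7.81% TGANTCA and 37.4% CCAAT, and the median window had 7 CpG and 52.7% GC. In CpG count the Dsp and Pkp4 windows stood at the 85.8th percentile and the Jup window at the 65.4th. RefSeq gives Pkp4 a second start, whose window (not shown) held 34 CpG (the 93rd percentile), 1 CAGGTG and 0 of the other motifs.

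How the 8 genes stand to each other was read per length, as CPM per kilobase of annotated exon, over the 7 libraries. Jup, the armadillo protein that desmosomes share with adherens junctions, was the most abundant (35.9 to 56.3 CPM per kilobase), and in the WT library it stood at the 94.1st percentile of 15616 genes. Pkp4 (19.3 to 21.2), a plakophilin relative also found at adherens junctions, and Pkp2 (16.6 to 22.3), the plakophilin of simple epithelium and heart, came next, and their ranges overlapped. Pkp3, a plakophilin of most epithelia, followed at 3.22 to 5.95. The cadherins Dsg2 (1.87 to 3.09) and Dsc2 (0.808 to 2.07), the pair typical of simple epithelium, were lower still, and their ranges overlapped. Dsp stood below Pkp3 in each edited library and above it in the WT library, where Dsp had 7.25 and Pkp3 5.35 CPM per kilobase. Pkp1, the plakophilin of stratified epithelium, had 0 and 2 counts in Pcgf3KO, 2 and 3 in Pcgf5KO, 6 and 4 in DKO and 4 in WT, at most 0.0629 CPM per kilobase. Pkp1 did not pass the filter on low counts, so 7 of the 8 genes were tested. With the length of the longest annotated transcript instead, Pkp2 (median 33.8) stood above Pkp4 (25.1).

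**Figure D1:**
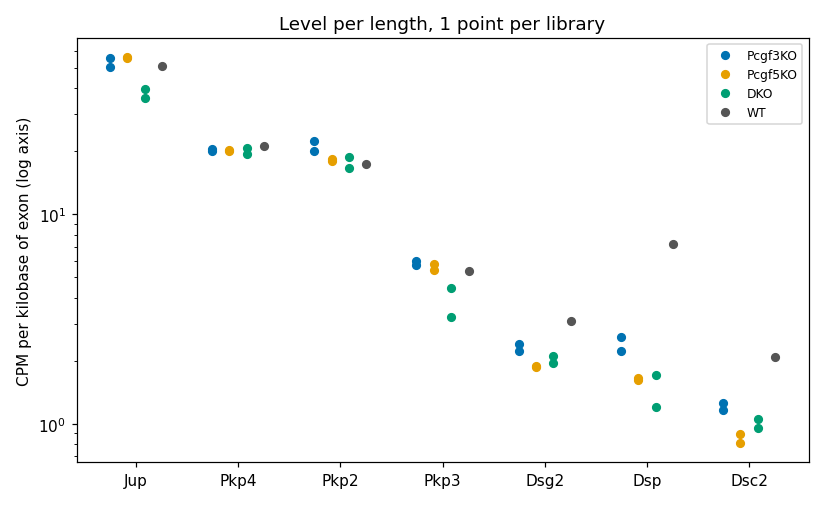
CPM per kilobase of exon (log axis) of the 7 tested desmosome genes, 1 point per library, coloured by group with the edited groups left of WT. Jup is highest in every library, and Dsp has the widest range, 1.2 to 7.25.

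Desmoplakin was the member that differed most. Dsp had 21.4 and 25.1 CPM in the Pcgf3KO libraries, 16 and 15.5 in Pcgf5KO, 11.6 and 16.5 in DKO and 70 in the WT library. Every edited library was thus far below WT, at 30.5% and 35.8% of its level in Pcgf3KO, 22.8% and 22.2% in Pcgf5KO, and in the DKO libraries at 16.6% and 23.5%. The Pcgf3KO libraries lay above the other 4 edited ones, and the DKO and Pcgf5KO libraries overlapped. In raw reads the WT library had 1230 counts of Dsp, against 192 to 448 in the edited libraries.

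Against WT, Dsp fell in Pcgf3KO (log2 fold change −1.59 ± 0.18 standard error, adjusted p = 0.00247 by edgeR's quasi-likelihood test with Benjamini-Hochberg adjustment over 15669 genes, as for each adjusted p below unless the 8-library fit is named). It fell in Pcgf5KO (−2.15 ± 0.18, adjusted p = 0.000997) and in DKO (−2.32 ± 0.18, adjusted p = 0.000578). By p it ranked 39th of 15669 genes in Pcgf3KO, 7th in Pcgf5KO and 7th in DKO. These 3 comparisons share the 1 WT library, so they do not repeat each other. Dsp passed in all 3 under each of the 10 other settings tried, with adjusted p of at most 0.0498; the lone WT library was in all of them. The genes nearest to Dsp on chromosome 13 passed in none of the 3: Snrnp48 (6.36 kb beyond it, −0.01, −0.28 and 0.13 in Pcgf3KO, Pcgf5KO and DKO), Riok1 (89.9 kb before it, −0.04, −0.08 and −0.21), Cage1 and Bmp6. Gm10129, a gene listed on the other strand, shares 499 exonic bases with Dsp and had at most 1 count.

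**Figure D2:**
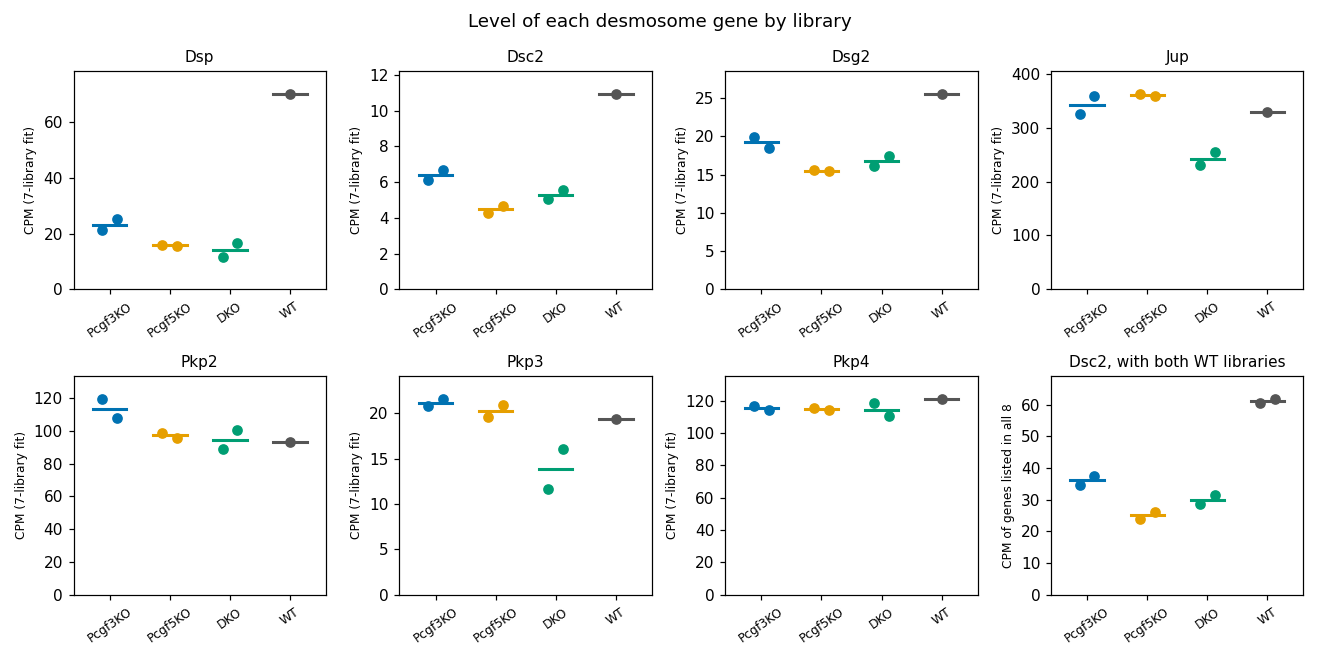
CPM of 7 desmosome genes in each library of the 7-library fit, and of Dsc2 among the genes listed in all 8 libraries (last panel). Points are libraries, bars are group means, and WT is 1 library except in the last panel. Dsp, Dsc2 and Dsg2 lie below WT in each edited library, and Jup and Pkp3 are lowest in DKO.

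The desmosomal cadherins were also below WT, by less than Dsp. Dsc2 (chromosome 18, 20030633 to 20059554, mm10), the desmocollin of simple epithelium, is the only member with both WT libraries. In the 8-library fit it had 34.6 and 37.6 CPM in Pcgf3KO, 23.9 and 26.2 in Pcgf5KO, 28.6 and 31.3 in DKO and 60.6 and 61.7 in WT. The groups did not overlap, the WT libraries were close together, and Pcgf5KO was the lowest group. Dsc2 fell in Pcgf3KO (−0.76 ± 0.16, adjusted p = 0.0182), in Pcgf5KO (−1.29 ± 0.17, adjusted p = 0.00113) and in DKO (−1.03 ± 0.16, adjusted p = 0.0028), each over 2702 genes, of which 2.33%, 4.29% and 3.7% were lower. The falls in Pcgf5KO and DKO passed under each of 12 other settings (adjusted p of at most 0.0364 and 0.0341). The fall in Pcgf3KO did not pass without WT replicate 1 (0.0836) or 2 (0.0968), nor without Pcgf3KO replicate 1 (0.202) or 2 (0.122). In the 7-library fit Dsc2 had 6.15 and 6.66 CPM in Pcgf3KO, 4.26 and 4.69 in Pcgf5KO, 5.06 and 5.53 in DKO and 10.9 in WT, with fold changes of −0.77 (adjusted p = 0.0732), −1.29 (0.0124) and −1.04 (0.0229). There the Pcgf5KO call did not hold without Pcgf5KO replicate 1 (0.169) or 2 (0.117). The DKO call did not hold without either library of Pcgf3KO (0.0746 and 0.0768) or of Pcgf5KO (0.0731 and 0.0724), nor with DESeq2 (0.0522).

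Dsg2 (chromosome 18, 20558074 to 20604521, mm10), the desmoglein found in nearly all desmosomes, lies 499 kb from Dsc2. It had 20 and 18.5 CPM in Pcgf3KO, 15.6 and 15.5 in Pcgf5KO, 16.2 and 17.4 in DKO and 25.5 in WT. All 6 edited libraries were below the WT library, and Pcgf5KO was again the lowest group. Dsg2 did not pass in Pcgf3KO (−0.41 ± 0.14, adjusted p = 0.169), fell in Pcgf5KO (−0.72 ± 0.14, adjusted p = 0.0291) and fell in DKO (−0.60 ± 0.14, adjusted p = 0.0457). The fall in Pcgf5KO did not pass without either Pcgf3KO library (0.0963 and 0.0966) or either Pcgf5KO library (0.25 and 0.235). The fall in DKO did not pass without these 4 (0.128 to 0.139), with DESeq2 (0.112) or with the replicate number as a block (0.0603). Per length, Dsc2 made up 32.6% and 36.1% of the summed Dsc2 and Dsg2 level in Pcgf3KO, 30% and 32.2% in Pcgf5KO, 32.9% and 33.3% in DKO and 40.2% in WT. The share of Dsc2 was thus lower in each edited library than in the WT library. Beside them on chromosome 18, Dsc3, a desmocollin of stratified epithelium, had 2 to 19 counts per library. Of the next tested genes B4galt6, a galactosyltransferase, did not pass in Pcgf3KO (0.14) or Pcgf5KO (0.51, adjusted p = 0.0646) and rose in DKO (0.76, adjusted p = 0.0132), and Trappc8 passed in none (−0.07, −0.26 and −0.07). Dsc3 did not pass (−1.59, −1.5 and −0.08, adjusted p = 0.298, 0.283 and 0.957), and the next tested gene beyond it, Cdh2 (N-cadherin), 3220 kb from Dsc2, fell in all 3 (−0.71, −1.25 and −1.28, adjusted p = 0.0469, 0.00451 and 0.00304).

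Plakoglobin had another pattern. Jup (chromosome 11, 100368958 to 100397763, mm10) had 326 and 359 CPM in Pcgf3KO, 363 and 359 in Pcgf5KO, 231 and 255 in DKO and 330 in WT. The single knockouts lay around the WT library, and both DKO libraries lay below every other. Jup fell in DKO against WT (−0.44 ± 0.1, adjusted p = 0.0402), against Pcgf3KO (−0.50 ± 0.08, adjusted p = 0.0191) and against Pcgf5KO (−0.57 ± 0.08, adjusted p = 0.0157). In the single knockouts its difference from WT was 0.05 in Pcgf3KO (95% interval −0.17 to 0.27, adjusted p = 0.849) and 0.13 in Pcgf5KO (−0.09 to 0.35, adjusted p = 0.512). The 3 DKO calls kept their direction but did not pass without any one library of Pcgf3KO or Pcgf5KO. Adjusted p was then 0.107 to 0.138 against WT, 0.0897 to 0.332 against Pcgf3KO and 0.0619 to 0.298 against Pcgf5KO. Per length the ratio of Dsp to Jup was 0.0437 and 0.0465 in Pcgf3KO, 0.0294 and 0.0288 in Pcgf5KO, 0.0334 and 0.0431 in DKO and 0.141 in WT.

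None of the plakophilins tested passed in a comparison with WT. Pkp2 (chromosome 16, 16213318 to 16272712, mm10) had 119 and 108 CPM in Pcgf3KO, 99 and 95.8 in Pcgf5KO, 88.8 and 101 in DKO and 93.2 in WT. Its differences from WT were 0.29 (95% interval 0.03 to 0.54, adjusted p = 0.256), 0.06 (−0.19 to 0.32, adjusted p = 0.808) and 0.02 (−0.23 to 0.28, adjusted p = 0.928). Pkp3 (chromosome 7, 141078218 to 141090510, mm10) had 20.8 and 21.5 CPM in Pcgf3KO, 19.6 and 20.9 in Pcgf5KO, 11.7 and 16.1 in DKO and 19.4 in WT. Both DKO libraries were below all others but far from each other, and the difference of DKO from WT was −0.48 (−0.90 to −0.06, adjusted p = 0.206). Its differences were 0.13 in Pcgf3KO (−0.29 to 0.55, adjusted p = 0.803) and 0.06 in Pcgf5KO (−0.36 to 0.49, adjusted p = 0.886). Pkp4 (chromosome 2, 59160850 to 59355208, mm10) was the steadiest member, with 117 and 114 CPM in Pcgf3KO, 116 and 114 in Pcgf5KO, 119 and 110 in DKO and 121 in WT. Its differences were −0.07 (−0.28 to 0.14, adjusted p = 0.799), −0.07 (−0.28 to 0.14, adjusted p = 0.729) and −0.08 (−0.29 to 0.13, adjusted p = 0.689). Of the summed plakophilin level per length, Pkp2 made up 46% and 43.6% in Pcgf3KO, 41.8% and 40.9% in Pcgf5KO, 40.7% and 44.1% in DKO and 39.6% in WT. Pkp3 made up 11.9% and 12.9%, 12.3% and 13.3%, and 7.92% and 10.5% in these edited groups, against 12.2% in WT.

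**Figure D3:**
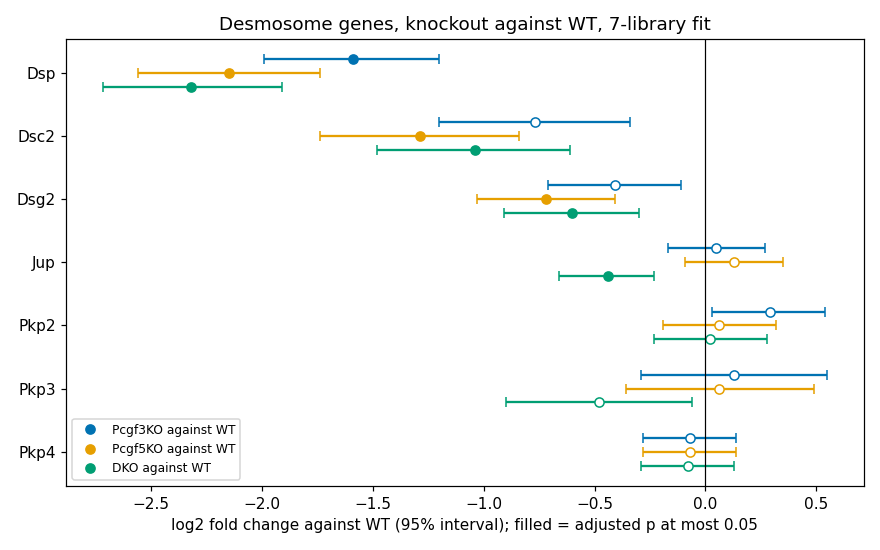
Log2 fold change against WT with its 95% interval for 7 desmosome genes in Pcgf3KO, Pcgf5KO and DKO, from the 7-library fit. Filled points passed an adjusted p of 0.05. Dsp lies farthest left in all 3 comparisons, and the plakophilins Pkp2, Pkp3 and Pkp4 have no filled point.

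In counts, 1 of the 7 members tested was lower in Pcgf3KO (Dsp), where 1.28% of all genes tested were lower. In Pcgf5KO 3 were lower (Dsp, Dsc2 and Dsg2), where 1.68% of all genes were, and in DKO 4 (these and Jup), where 1.89% were. No member was higher in any of the 3, where 1.08%, 1.31% and 1.33% of all genes were higher. The median log2 fold change of the 7 was −0.07, −0.07 and −0.48, against 0.00, 0.00 and 0.01 over all genes tested. Leaving out either Pcgf5KO library took the count to 1 in Pcgf5KO, and leaving out any one library of Pcgf3KO or Pcgf5KO took it to 1 in DKO, with Dsp the gene left in each case. Without DKO replicate 1 or 2 more members passed in Pcgf3KO, Dsc2 and Dsg2 as lower and Pkp2 as higher. Without DKO replicate 2 Pkp3 also passed as lower in DKO (−0.73). The counts of calls over all genes were also highest without a DKO library, so these rises were not confined to the members. The spread is pooled over groups, and the DKO pair was the least alike.

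Do the edited groups differ from each other? Between Pcgf5KO and Pcgf3KO no member passed, where 0.14% of all genes did. The largest differences were in Dsp (−0.56, 95% interval −0.92 to −0.19, adjusted p = 0.42) and Dsc2 (−0.52, −0.92 to −0.12, adjusted p = 0.479). Dsg2 (−0.31, −0.57 to −0.05, adjusted p = 0.529) and Pkp2 (−0.22, −0.43 to −0.01, adjusted p = 0.572) came next. The intervals of these 4 lay below 0, and the share of all genes with such an interval was not counted. In each of these 4 both Pcgf5KO libraries lay below both Pcgf3KO libraries. How large a share of all genes did so was not counted either, so this is no added evidence of a difference. Over the 10 other settings Dsp ranged from −0.67 to −0.44 and Dsc2 from −0.58 to −0.45. Dsg2 ranged from −0.36 to −0.25 and Pkp2 from −0.29 to −0.15. Their calls changed without a DKO library, where the counts of calls over all genes were also highest. With no filter on low counts Dsp passed (0.0128), where 224 genes were called in all (22 with the filter).

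Between DKO and Pcgf3KO only Jup passed of the 7 (1% of all genes were lower). Dsp was lower by a difference of −0.72 (−1.09 to −0.36, adjusted p = 0.0623), which passed with DESeq2 (0.0104), with the replicate block (0.016), with no filter (1.81e-05) and without DKO replicate 1 (0.00191) or 2 (1.49e-08). Pkp3 had a difference of −0.61 (−0.95 to −0.26, adjusted p = 0.0889) and ranged from −0.86 to −0.40. It passed in 4 of the 10 other settings: the block (0.036), no filter (0.00151) and without DKO replicate 1 or 2. With no filter 1355 genes were called in all (272 with the filter), and counts over all genes were also highest without a DKO library. Between DKO and Pcgf5KO again only Jup passed (1.28% of all genes were lower). Dsp, Dsc2 and Dsg2 differed there by −0.17 (−0.55 to 0.21, adjusted p = 0.556), 0.25 (−0.15 to 0.65, adjusted p = 0.402) and 0.11 (−0.15 to 0.38, adjusted p = 0.561). For Dsp the sign depended on 1 library: 0.06 (adjusted p = 0.794) without DKO replicate 1 and −0.44 (adjusted p = 0.00692) without DKO replicate 2. Pkp3 differed by −0.54 (−0.89 to −0.19, adjusted p = 0.0836) and ranged from −0.79 to −0.33. It passed in 3 of the 10 other settings: the block (0.0338), no filter (0.00625) and without DKO replicate 2. It did not pass in the rest, among them without DKO replicate 1.

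The DKO change was also set against the sum of the changes in the single knockouts. For Dsp the sum was −3.75 and the DKO change −2.32, a difference of 1.43 ± 0.25 (adjusted p = 0.016). For Dsc2 the sum was −2.06 and the DKO change −1.04 in the 7-library fit (1.02 ± 0.26, adjusted p = 0.0676), and the difference passed in the 8-library fit (1.02 ± 0.23, adjusted p = 0.03, where 3.52% of 2702 genes passed as higher). For Dsg2 they were −1.13 and −0.60 (0.52 ± 0.18, adjusted p = 0.129). In these 3 genes the DKO change was thus smaller than the sum, and DKO did not pass against Pcgf5KO, the lower single knockout. Jup went the other way: the sum was 0.18 and the DKO change −0.44 (−0.62 ± 0.13, adjusted p = 0.0301). Pkp3 had 0.19 and −0.48 (−0.67 ± 0.24, adjusted p = 0.145), Pkp2 0.35 and 0.02 (−0.33 ± 0.15, adjusted p = 0.22) and Pkp4 −0.14 and −0.08 (0.06 ± 0.12, adjusted p = 0.804). So 1 of 7 members passed as higher than the sum and 1 as lower, where 1.77% and 2.02% of all genes did. Without any one library of Pcgf3KO or Pcgf5KO neither Dsp (adjusted p 0.0736 to 0.108) nor Jup (0.0992 to 0.194) passed, and the WT library enters both sums. Without DKO replicate 1 or 2 more of the 7 passed, and the counts of calls over all genes were also highest without a DKO library. The Dsc2 result in 8 libraries did not pass without any one library of WT, Pcgf3KO or Pcgf5KO (0.0794 to 0.156).

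**Figure D4:**
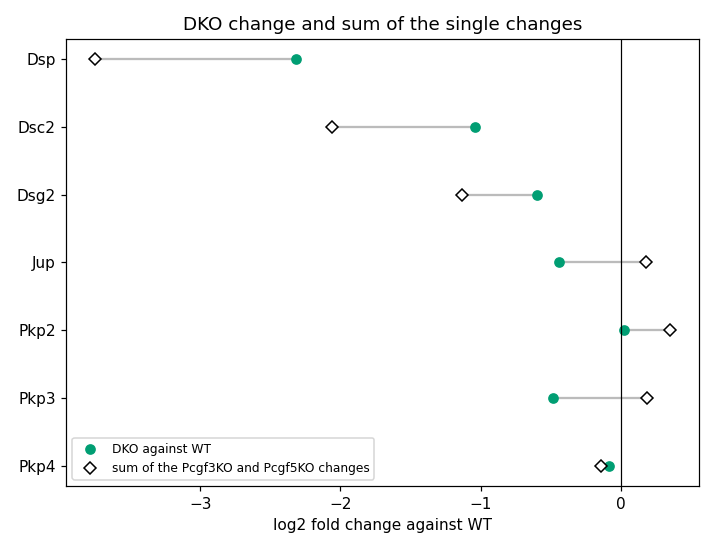
Log2 fold change of DKO against WT (filled circles) and the sum of the Pcgf3KO and Pcgf5KO changes against WT (open diamonds) for 7 desmosome genes, 7-library fit, without error bars. For Dsp the circle is at −2.32 and the diamond at −3.75, and for Jup the circle is left of the diamond, at −0.44 and 0.18.

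Other desmosomal genes were looked at from a list that holds further cadherins, Perp and plakins. Dsg1a, Dsg1b and Dsg4 had 0 counts in each of the 7 libraries, which allows up to 3 counts per library (0.148 to 0.243 CPM, counting error only). Dsg1c had at most 1, Dsc1 at most 2 and Dsg3 at most 3. These are cadherins of stratified epithelium and hair, so Dsc2 and Dsg2 were the only desmosomal cadherins above 19 counts. Of the 14 genes 8 were tested and 1 was lower in each comparison with WT, Perp, a membrane protein that desmosomes need and a p53 target. Perp had 27.6 and 32.1 CPM in Pcgf3KO, 30.7 and 27 in Pcgf5KO, 21.5 and 24.8 in DKO and 68 in WT. It fell in all 3 edited groups (−1.19 ± 0.14, adjusted p = 0.00356 in Pcgf3KO, −1.23 ± 0.14, adjusted p = 0.0031 in Pcgf5KO and −1.55 ± 0.14, adjusted p = 0.00087 in DKO). The plakin Ppl did not pass (0.06, 0.06 and 0.19), nor did Evpl (−0.24, 0.03 and 0.27) or Plec (0.36, 0.07 and −0.27, adjusted p = 0.156, 0.789 and 0.233). The list's median was −0.12, −0.17 and 0.06.

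Keratins are the filaments that desmoplakin holds. Krt8 had 178 and 198 CPM in Pcgf3KO, 153 and 154 in Pcgf5KO, 69.8 and 115 in DKO and 418 in WT. Its partner Krt18 had 104 and 103 CPM in Pcgf3KO, 93.9 and 99.2 in Pcgf5KO, 50.9 and 90.4 in DKO and 278 in WT. Both fell in each edited group, Krt8 with log2 fold changes of −1.15, −1.44 and −2.17 (adjusted p = 0.0239, 0.00949 and 0.00119) and Krt18 with −1.42, −1.53 and −1.97 (adjusted p = 0.0157, 0.0119 and 0.00288). Krt42 went the opposite way and rose (1.84, 1.35 and 1.01, adjusted p = 0.000352, 0.00117 and 0.00288). Of 12 keratin and other filament genes 11 were tested, of which 1 rose in each edited group, while 5 fell in Pcgf3KO, 4 in Pcgf5KO and 5 in DKO. Their medians were −0.33, −0.45 and −0.56.

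Genes of other junctions were read from lists in the same way. Of 14 adherens junction genes 1 was lower in each edited group and none higher, the N-cadherin gene Cdh2. Cdh1 (E-cadherin), the main cadherin of ES cells, did not pass, with 601 and 595 CPM in Pcgf3KO, 597 and 598 in Pcgf5KO, 511 and 522 in DKO and 643 in WT (−0.10, −0.10 and −0.32, adjusted p = 0.579, 0.492 and 0.0598). Of 18 tight junction genes 0 were called in Pcgf3KO, 1 was lower in Pcgf5KO (the polarity gene Pard6b, −0.59, adjusted p = 0.0319) and 3 in DKO (Pard6b, −0.67, adjusted p = 0.0184, Cgn, −0.59, adjusted p = 0.0239, and Cldn6, −0.91, adjusted p = 0.0279). The medians of the tight junction genes were −0.11, −0.28 and −0.50, and those of the adherens junction genes −0.04, −0.08 and −0.12. Among gap junction genes the connexin Gjb5 rose in Pcgf3KO (1.5, adjusted p = 0.00557) and in DKO (1.68, adjusted p = 0.00274), and did not pass in Pcgf5KO (0.46, adjusted p = 0.26). Of 9 hemidesmosome and integrin genes 3 were lower in Pcgf3KO, 2 in Pcgf5KO and 2 in DKO, among them the integrins Itga3 (−0.66, −0.83 and −1.04, adjusted p = 0.0202, 0.00778 and 0.00226) and Itgb1 (−0.58, −0.73 and −0.59, adjusted p = 0.008, 0.0026 and 0.00566). Whether these shares differ between the lists was not tested.

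**Figure D5:**
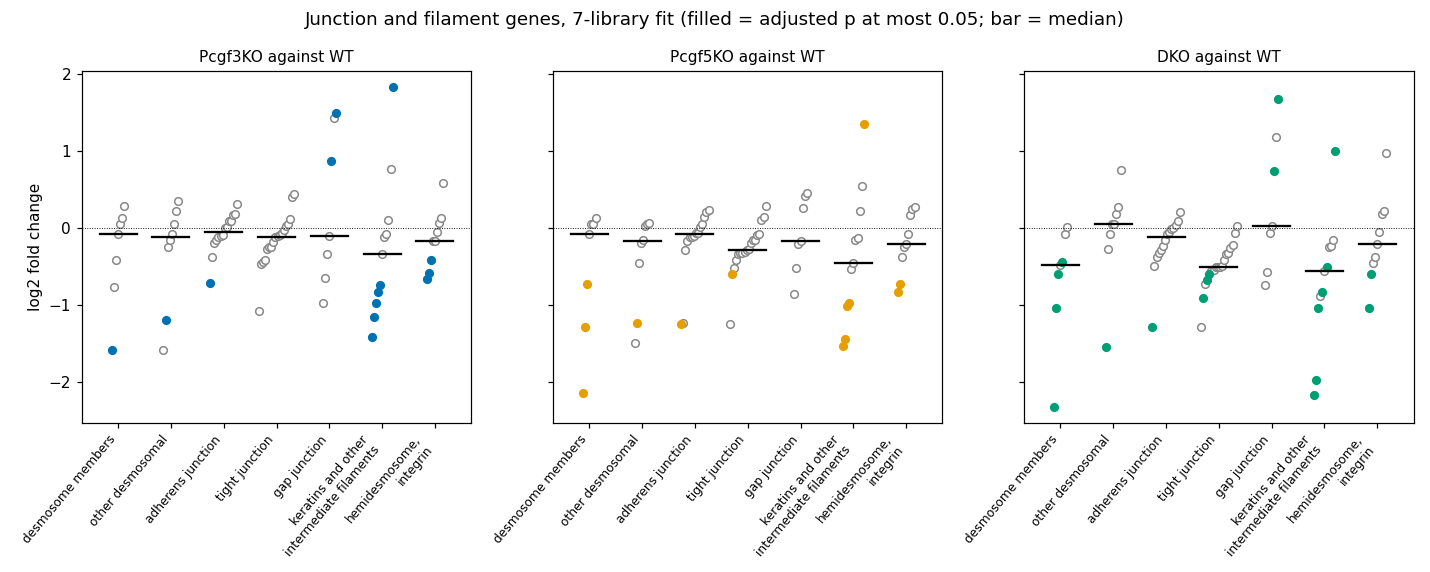
Log2 fold change against WT of each tested gene in 7 lists of junction and filament genes, with 1 panel each for Pcgf3KO, Pcgf5KO and DKO. Filled points passed an adjusted p of 0.05 and bars are medians; Dsp, Krt8 and Krt18 lie below −1 in each panel, and the median of the tight junction genes is −0.50 in DKO, where that of the desmosome genes is −0.48.

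Markers of other cells moved beside the desmosome genes, and their part in the result was not tested; in bulk RNA fewer cells of a type and less RNA per cell cannot be told apart. The 23 feeder fibroblast markers summed to 1680 and 1730 CPM in Pcgf3KO, 1914 and 1985 in Pcgf5KO, 1931 and 1857 in DKO and 2108 in WT. Most of that sum was Fn1 (1091 CPM in WT) and Sparc (807), so it says little of the other markers. Fn1 differed from WT by −0.57, −0.10 and −0.05 and Sparc by 0.07, −0.05 and −0.20. Of the 23 markers 18 were tested, of which 6 were lower in Pcgf3KO, 1 in Pcgf5KO and 5 in DKO (median −1.0, −0.43 and −0.99), and 0 were higher. Of all genes tested 1.28%, 1.68% and 1.89% were lower, the shares to set beside the counts of each marker list here. S100a4 was at 0 in all 7 libraries, Postn had at most 6 counts and Fap at most 4, while Col1a1 had 5.19 to 7.93 CPM in edited libraries and 16.2 in WT. Col1a1 passed as lower in all 3 edited groups (−1.46, −1.09 and −1.40). Acta2 (−1.06, −0.42 and −3.67) passed as lower in Pcgf3KO and DKO, and Tagln (−0.54, −0.34 and −1.58) in DKO. The 11 trophectoderm markers summed to 209 and 220 CPM in Pcgf3KO, 156 and 144 in Pcgf5KO, 149.5 and 224 in DKO and 252 in WT, and 1, 3 and 3 of the 11 were lower (median −0.33, −0.90 and −0.63). The defining trophectoderm factor Cdx2 had 0.0527 to 0.592 CPM in edited libraries (1 to 10 counts) and 1.99 in WT. It passed as lower in DKO alone (adjusted p = 0.0256). Hand1 fell in Pcgf3KO (−2.30, adjusted p = 0.0378) and Pcgf5KO (−2.89, adjusted p = 0.0196). In DKO it did not pass, with 16 and 46.4 CPM against 45.8 in WT. Eomes (0.76, 0.28 and 0.07) and Ascl2 (0.76, 0.54 and 0.11) had positive differences that did not pass. The 14 primitive endoderm markers summed to 817 to 888 CPM in edited libraries and 1186 in WT, with Gata6 and Sox17 at most 0.854 CPM, and 4, 3 and 3 of the 12 tested were lower (median −1.02, −0.82 and −0.36). Most of their sum was Lamc1 (541 CPM in WT), Lamb1 (308), Col4a1 (200) and Col4a2 (114). Col4a1 (−1.58, −1.49 and −0.91), Col4a2 (−1.82, −1.92 and −1.26) and Dab2 passed as lower in all 3 edited groups, as Dsp did. Lamb1 passed as lower in Pcgf3KO alone (−0.41), and 0 of these markers were higher in any edited group. Of the 10 squamous epithelium markers 4 were tested, and Trp63 and Krt5, which define that tissue, were at most 0.474 CPM. Their sum of 190.4 to 201 CPM in the single knockouts, 78.7 and 134 in DKO and 236 in WT was mostly Sfn (187 to 198, 75 and 131, and 232 CPM), which fell in DKO (−1.18, adjusted p = 0.0284). The 18 pluripotency genes had 5 higher and 0 lower in each edited group (median 0.38, 0.36 and 0.26), where 1.08%, 1.31% and 1.33% of all genes tested were higher. The 5 were not the same genes in each group. Fgf4 passed in all 3 (0.53, 0.48 and 0.56), Pou5f1 in Pcgf5KO alone (0.41), and Klf4 (1.46) and Tbx3 (1.95) in DKO alone.

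The genes whose levels ran most like those of Dsp were sought among 10773 named genes of fair abundance, by Pearson's r of log2 CPM over the 7 libraries, as a description with no test. For Dsp they were Fam43a (0.991), Pard6b (0.989), Igfbp3 (0.987), Cdc42 (0.983) and Kif5c (0.982). Pard6b had 52.3 and 55.5 CPM in Pcgf3KO, 50.5 and 46.5 in Pcgf5KO, 43.2 and 48.6 in DKO and 73.1 in WT. For Dsc2 they were Flt1 (0.992), Rmc1 (0.984), Fndc3b (0.983), Sept11 (0.978) and Adgrl2 (0.976). Flt1, a receptor for vascular endothelial growth factor, had 4.74 and 4.75 CPM in Pcgf3KO, 3.2 and 3.48 in Pcgf5KO, 3.53 and 4 in DKO and 9.39 in WT. In all 10 the WT library was the highest, so these coefficients rest in part on 1 library.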

How the data were processed

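Counts of reads per Ensembl gene were deposited by the authors as 1 table per library, per the file headers. Libraries were made from poly-A RNA with the NEBNext Ultra kit, per the labels' protocols, which does not mark strand. The submitters' processing notes list TopHat2 2.0.12, Cufflinks 2.2.1, HTSeq 0.6.0 and mm10, without saying which did what; the annotation release is not given in the sources used here. Of 47069 identifiers 46488 were paired with a symbol (GENCODE M21), and 0 entries named no gene.

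A quasi-likelihood model (edgeR 4.0.16 under R 4.3.3, glmQLFTest, TMM scaling, filterByExpr, group as the only term) was fitted to the counts over the 7 full libraries (15669 genes, 3 residual degrees of freedom) and over the genes listed in all 8 (2702 genes, 4). In the 7-library fit the lone WT library is assumed to vary like the other groups. Genes were called at an adjusted p of at most 0.05 (Benjamini-Hochberg). CPM uses TMM-scaled library sizes. The code was tested on simulated data. Members, comparisons, lists and the rule for genes named (members, up to 3 called per list, the 5 most similar, Pcgf3 and Pcgf5) were chosen with earlier results of these data known; neighbouring genes and Cdh1 and the plakins were added. The count of calls in the gap junction list is not reported here. Alternatives were RLE scaling, no filter, DESeq2 1.42.0, a replicate block and leaving out each library.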

Additional observations from a re-analysis of the deposited data

Results flagged for a closer look

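The difference between the DKO change and the sum of the single changes passed the test for 3 values. For Dsp it was 1.43 on the log2 scale and for Jup −0.62, both over 7 libraries, and for Dsc2 1.02 over 8 libraries. The WT level enters each of these once, as 1 library for Dsp and Jup and as 2 for Dsc2. Dsp and Jup each passed in 6 of 10 other settings, and Dsc2 in 6 of 12. All 3 failed without any one library of Pcgf3KO or Pcgf5KO. No group had the 4 libraries that a check for single outlying libraries needs.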

How the results depend on the processing

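RLE scaling moved no count of calls by over 1.5 times. The other settings did, and the cause was not tested. With no filter on low counts the 7-library fit called 1105 genes in Pcgf3KO, 1222 in Pcgf5KO and 1474 in DKO against WT (370, 468 and 505 with the filter), 1355 in DKO against Pcgf3KO (272), 2312 in DKO against Pcgf5KO (357), 224 in Pcgf5KO against Pcgf3KO (22) and 1904 for the difference from the sum (594). Desmosome genes called were then 2 in Pcgf3KO against WT (1), 3 and 2 in DKO against Pcgf3KO and Pcgf5KO (1 each) and 1 in Pcgf5KO against Pcgf3KO (0). In the 8-library fit no filter gave 279, 354 and 373 genes against WT (149, 233 and 219), then 218, 376, 46 and 418 (14, 64, 5 and 187) in the same order. DESeq2 called 2 members in DKO against WT (4) and 2 in DKO against Pcgf3KO, and 659 and 75 genes in DKO against Pcgf5KO and Pcgf5KO against Pcgf3KO. In 8 libraries it called 44, 145 and 15 genes in DKO against Pcgf3KO, DKO against Pcgf5KO and Pcgf5KO against Pcgf3KO.

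With the replicate block these 3 comparisons had 499, 1532 and 62 genes in 7 libraries and 65, 265 and 12 in 8, the difference from the sum had 1305 and 320, and members called were 3 in DKO against Pcgf3KO and 2 in DKO against Pcgf5KO. Whether the replicate numbers pair the libraries could not be settled with 2 libraries per group. The deviations of same-numbered libraries from their group means correlated at −0.03, 0.16 and 0.02 in 7 libraries and at −0.06 to 0.19 in 8.

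Leaving out 1 library gave, in 7 libraries, 46 to 3167, 37 to 4119 and 165 to 5379 genes against WT, 7 to 5571 in DKO against Pcgf3KO, 3 to 6583 in DKO against Pcgf5KO, 3 to 1909 in Pcgf5KO against Pcgf3KO and 35 to 5712 for the difference from the sum. Members called in the same order were 1 to 4, 1 to 3, 1 to 5, 0 to 4, 0 to 3, 0 to 4 and 0 to 6. The highest counts came without a DKO library. In 8 libraries the genes were 39 to 437, 33 to 629, 60 to 764, 1 to 646, 0 to 822, 1 to 73 and 35 to 793, and Dsc2 was called 0 to 1 times in Pcgf3KO against WT and for the difference from the sum, and in every setting in Pcgf5KO and DKO against WT. The lone WT library of the 7-library fit was not left out.

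Signs turned for small values. Jup in Pcgf3KO against WT ranged from −0.02 (without Pcgf3KO replicate 2) to 0.12, and Pkp2 in DKO against WT from −0.07 (without DKO replicate 2) to 0.11. In DKO against Pcgf5KO, Dsp ranged from −0.44 to 0.06 and Pkp2 from −0.13 to 0.05 (both highest without DKO replicate 1). Pkp4 ranged from −0.06 to 0.05 in DKO against Pcgf5KO (0.01 without Pcgf5KO replicate 1), from −0.07 to 0.04 in DKO against Pcgf3KO (0.00 without Pcgf3KO replicate 1) and from −0.02 to 0.01 in Pcgf5KO against Pcgf3KO. Depth limits Pkp1, which had at most 6 counts in a library.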
